A study of Mus musculus with 24 samples.

Results

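WNT ligands, their receptors, the R-spondin and Lgr amplifiers of the pathway and its secreted inhibitors were followed in the mouse mammary gland. The members are the non-control array probes whose gene name is a Wnt, Fzd, Lrp5, Lrp6, Rspo1 to Rspo4, Lgr4, Lgr5, Lgr6, Sfrp, Dkk1 to Dkk4 or Wif1 gene. The names matched 47 genes with 69 probes, of 36610 gene names with 56605 probes on the array. The glands came from 4 groups of C57BL/6 females, namely mice homozygous for the R96C SOCS2 knock-in (KI) at pregnancy day 18 (n = 5), wild-type (WT) mice at pregnancy day 18 (n = 5), 8-week-old virgin KI mice (n = 7) and 8-week-old virgin WT mice (n = 7). The protein SOCS2 dampens the response of cells to growth hormone, partly through STAT5, and the stated purpose was to learn how the mutation affects the development and function of the gland. All samples were whole inguinal number 4 glands freed of the lymph node, 1 mouse per array. For pregnant mice the labels state no age, so pregnancy and age cannot be told apart. The allele is constitutive, so every cell type of a KI gland carries it.

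WNT proteins are lipid-modified ligands that bind a Frizzled receptor together with Lrp5 or Lrp6, which stabilises beta-catenin, or that act through other receptors such as Ror2. R-spondins bind Lgr receptors and protect Frizzled from the ubiquitin ligases Rnf43 and Znrf3, while Sfrp proteins and Wif1 bind WNTs and Dkk proteins bind Lrp5 and Lrp6. In the mammary gland, progesterone acts on its neighbours partly through Wnt4, Rspo1 acts on basal progenitors, and Wnt1 is a classical mammary oncogene of mice.

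Of the 47 genes, 35 were measured well enough to be tested, which required a probe well above background in 80% or more of the mice of any 1 group. They comprised 11 of 19 ligands, 12 of 12 Frizzled and Lrp receptors, 5 of 7 R-spondin and Lgr genes and 7 of 9 inhibitors. Dkk1, Dkk4, Rspo2, Rspo4, Wnt2b, Wnt3, Wnt3a, Wnt7a, Wnt8a, Wnt8b, Wnt9b and Wnt16 did not reach that level. Of these, Rspo4 was well above background on 12 of 24 arrays, Wnt16 on 11 and Wnt9b on 7, and Wnt3a on 0. The filter lets a gene pass through the group in which it is bright, so counts over the 35 are descriptions. A level below is the log2 processed signal of the gene's brightest probe relative to the 75th percentile of its array, and it can be compared between mice but not between genes.

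Genotypes rest on the labels, since expression probes cannot show the R96C substitution. The probe standing for Socs2 averaged 1.43 in KI and 2.07 in WT virgins, and 1.88 in KI and 1.87 in WT mice at day 18. Of the 3 other Socs2 probes, a pair was higher in KI glands, by 1.56 (adjusted p = 0.0250) and 1.74 (adjusted p = 0.0014; limma) averaged over the stages, and the third differed by -0.41 (adjusted p = 0.6462). For KI virgin 376 the median net signal of negative controls was 288, while 23 arrays lay between -4.4 and 10.3, and 57003 of its 59305 spots were well above background. KI day-18 mouse 184 came next with 43055 such spots, and the lowest array had 33374. KI virgin 198 had a luminal epithelial marker score of -3.28, against 0.88 for the next lowest in its group, and a skeletal muscle marker score of 7.90, against 2.15 for the next highest. Calls of members that change when these arrays are left out are given beside the gene. The arrays lie on 3 slides that each hold all 4 groups.

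Pregnancy day 18 changed the WNT family in KI and WT glands alike in direction. Of the 35 genes, 20 changed in KI glands (57.1%), 7 of them higher and 13 lower, against 42.2% of all 22389 genes tested (limma, adjusted p under 0.05). In WT glands 20 changed as well (57.1%), 6 higher and 14 lower, against 40.8% of all genes tested. The median difference over the members was -0.11 in KI and -0.51 in WT glands, where that of all genes was 0.12 and 0.07. The comparisons share no mice, but all arrays share an estimate of each gene's spread, so their calls are not independent. Leaving out KI mice can therefore change WT calls. In all, 19 genes changed the same way in each genotype, 6 higher and 13 lower, which is 95% of either list, and 0 changed in opposite directions. Over all genes 7728 calls were shared, 81.8% of the KI and 84.6% of the WT calls, also with 0 in opposite directions. The gap between these shares and that of the members was not tested. Wnt10a was called in KI glands alone and Wnt7b in WT glands alone, and neither difference between the genotypes passed a test. With arrays scaled to their spike-in controls, the split moved to 3 higher and 23 lower in KI and likewise 3 higher and 23 lower in WT glands, while the median of all genes moved to -0.78 in KI and -0.90 in WT glands. Changes are therefore relative to the bulk of the genes on the array. The map of all members by mouse shows the day-18 columns standing apart from the virgins in a few strong rows per role.

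**Figure D1:**
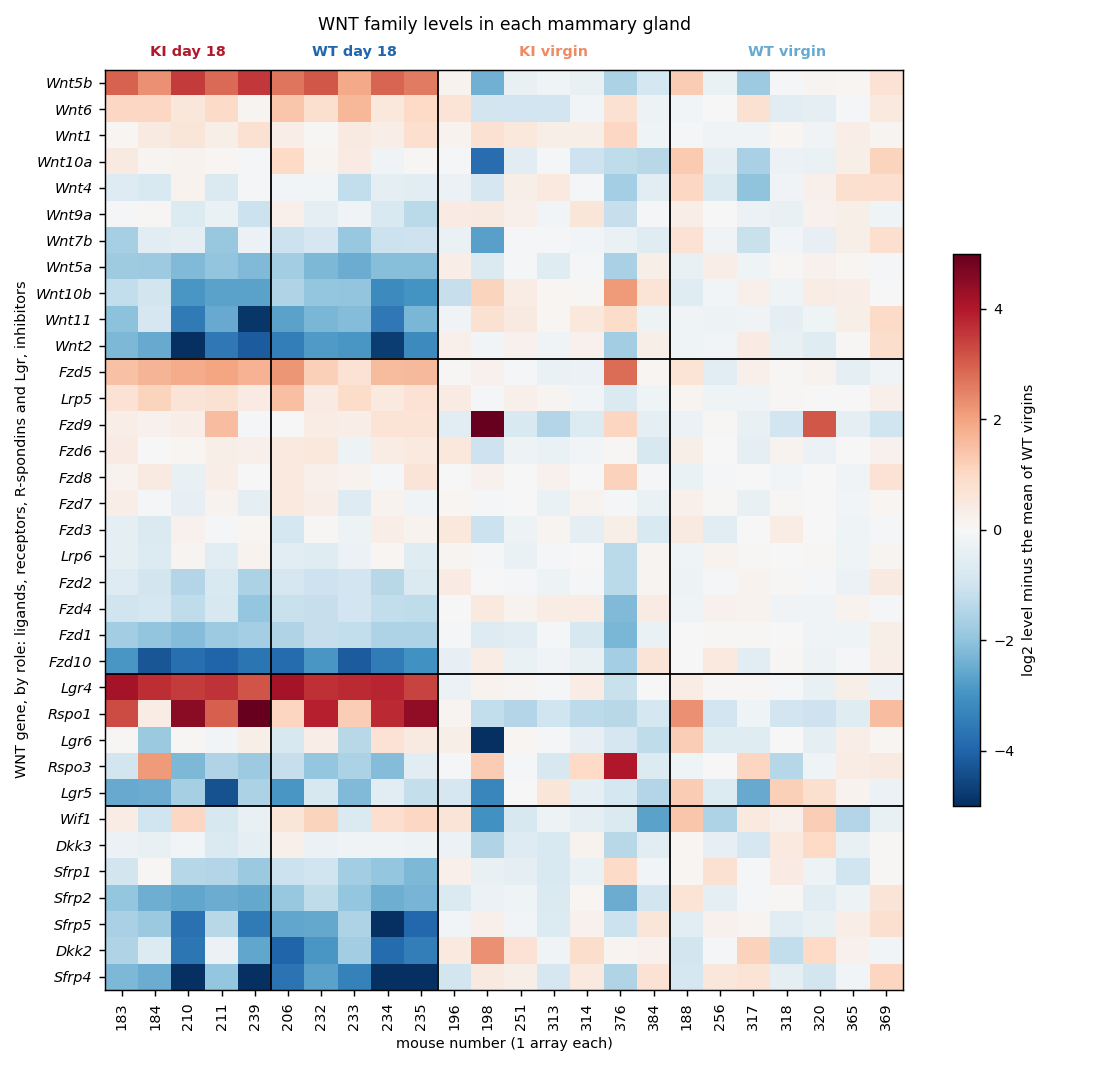
Each row is 1 of the 35 tested WNT genes, ordered by role and then by the WT difference, and each column is 1 mouse; colour is the log2 level minus the mean of the 7 WT virgins, cut at 5 in either direction. Lgr4 and Wnt5b are red in all 10 day-18 mice and Fzd10, Wnt2 and Sfrp4 are blue, while KI virgins 198 and 376 depart from the other virgins in several rows.

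Among the ligands, Wnt5b rose most and Wnt2, Wnt11, Wnt10b and Wnt5a fell. Of 11 ligands, 3 rose and 4 fell in KI glands, where 23.7% of all genes rose and 18.5% fell, and 2 rose and 5 fell in WT glands, where 21.5% of all genes rose and 19.3% fell. Wnt5b, a ligand that signals mostly without beta-catenin, had levels of 3.67, 4.23, 4.32, 4.89 and 4.93 in KI mice at day 18, against -1.03 to 1.56 with a median of 1.02 in KI virgins. In WT mice at day 18 it had 3.27, 4.00, 4.04, 4.31 and 4.49, against -0.43 to 2.66 with a median of 1.50 in WT virgins. Every pregnant mouse of each genotype was above every virgin of that genotype. The difference was 3.83 ± 0.44 (SE) in KI glands, or 14.2-fold (adjusted p = 3.59e-07), and 2.64 ± 0.44 in WT glands, or 6.23-fold (adjusted p = 4.53e-05; limma). The differences within slides 1, 2 and 3 were 3.83, 4.28 and 3.39 in KI and 1.96, 3.49 and 2.61 in WT glands. The second Wnt5b probe that passed the filter was called higher in both genotypes too. The gain was 1.19 larger in KI than in WT glands, with an interval of -0.10 to 2.47, which did not pass the test (adjusted p = 0.9999).

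The Wnt5b start regions are printed because it is the ligand that rose most and its windows hold both motifs that were searched. RefSeq (GRCm38.p6) promoter windows, cut to the 250 bases before each start, were found for 21 of the 35 members, 24 windows in all. Searched on both strands were the STAT5 palindrome (TTC, any 3 bases, GAA) and CTTTGAT, a form of the TCF and LEF site; they do not overlap each other in these windows. The upstream start, on the minus strand at chr6:119467212-119467461, has a STAT-type match in capitals, and the downstream one, on the minus strand at chr6:119449387-119449636, has a TCF-type match in capitals.
Wnt5b upstream window: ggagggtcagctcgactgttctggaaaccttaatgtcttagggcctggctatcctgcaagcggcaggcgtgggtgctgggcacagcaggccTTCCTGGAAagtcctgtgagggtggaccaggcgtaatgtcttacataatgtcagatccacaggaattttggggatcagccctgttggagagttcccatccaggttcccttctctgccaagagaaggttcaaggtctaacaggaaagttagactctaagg
Wnt5b downstream window: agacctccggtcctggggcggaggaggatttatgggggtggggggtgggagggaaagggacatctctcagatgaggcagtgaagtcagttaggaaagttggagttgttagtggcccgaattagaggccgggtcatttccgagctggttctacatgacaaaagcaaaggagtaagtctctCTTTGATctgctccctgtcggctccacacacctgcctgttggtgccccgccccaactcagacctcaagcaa
The STAT-type letters were in 1 of the 24 member windows (4.17%) and in 7.02% of 32851 windows of all genes. The TCF-type letters were in 2 member windows (8.33%) and in 3.21% of all windows. A match is a description of the letters in the window and shows no binding.

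Wnt2, a ligand of fibroblasts in many tissues, had day-18 levels of -2.86, -1.96, -1.36, -0.31 and -0.02 in KI mice, against 0.48 to 2.49 with a median of 2.41 in KI virgins. In WT mice it had -2.54, -1.23, -0.98, -0.68 and -0.62 at day 18, against 1.62 to 3.08 with a median of 2.06 in virgins. The stages did not overlap in either genotype. Wnt2 fell by 3.36 in KI glands (10.2-fold, adjusted p = 2.07e-06) and by 3.42 in WT glands (10.7-fold, adjusted p = 1.74e-06). Wnt11, which acts in cell movement and ductal branching, had -6.31, -4.98, -3.97, -3.50 and -2.31 in KI mice at day 18, against -1.71 to -0.55 with a median of -0.99 in KI virgins. Its WT day-18 levels were -5.01, -4.14, -3.75, -3.72 and -3.61, against -1.89 to -0.50 with a median of -1.63 in WT virgins. No pregnant mouse reached the lowest virgin of its genotype. Wnt11 fell by 3.09 in KI (8.53-fold, adjusted p = 7.77e-06) and by 2.59 in WT glands (6.04-fold, adjusted p = 6.93e-05), and 3 of 5 KI and 4 of 5 WT arrays at day 18 were well above background. With normexp the falls were 1.18 in KI and 0.98 in WT glands and stayed called. Its window is the other member window with the TCF-type letters, on the plus strand at chr7:98834862-98835111 (GRCm38.p6), where the capitals mark them in the reverse direction.
Wnt11 window: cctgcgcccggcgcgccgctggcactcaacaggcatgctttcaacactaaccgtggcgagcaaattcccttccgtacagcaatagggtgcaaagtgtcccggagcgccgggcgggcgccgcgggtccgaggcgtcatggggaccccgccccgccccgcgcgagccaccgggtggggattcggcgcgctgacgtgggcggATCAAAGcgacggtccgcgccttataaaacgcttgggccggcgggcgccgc
So the same letters occur before a gene that rose and before a gene that fell.

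Wnt5a, a ligand made by the mammary stroma and ducts that restrains branching, had -0.79, -0.78, -0.53, -0.37 and -0.35 in KI mice at day 18, against -0.18 to 1.75 with a median of 1.34 in KI virgins. WT mice had -1.04, -0.81, -0.70, -0.68 and -0.29 at day 18, against 1.05 to 1.77 with a median of 1.49 in virgins. The day-18 mice lay close together and below every virgin of their genotype, the nearest being KI virgin 376. Wnt5a fell by 1.64 in KI (3.11-fold, adjusted p = 1.75e-05) and by 2.14 in WT glands (4.41-fold, adjusted p = 5.40e-07). Of its 3 probes that passed the filter, 2 were called lower in KI and 3 in WT glands. The third in KI glands, printed because it reads spliced Wnt5a RNA, covers 3963 bases of genome with 60 bases of probe (mm9, chr14:29331746-29335708, plus strand), so it crosses a splice junction.
Wnt5a probe: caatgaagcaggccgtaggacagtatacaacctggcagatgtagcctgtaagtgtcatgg
It was well above background on 1 of 5 KI and 0 of 5 WT arrays at day 18, against 6 of 7 virgins of each genotype, so it gives a bound only. For this Wnt5a probe the bound was 1.35-fold lower in KI glands, where the difference was not called (adjusted p = 0.0921; limma). In WT glands the bound was 1.59-fold lower (adjusted p = 0.0157, over all probes tested). The pair of other Wnt5a probes was well above background on all arrays.

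Wnt10b, which signals through beta-catenin and restrains fat cell formation, was bright in virgins and dim at day 18. Its levels in KI mice at day 18 were -5.47, -5.25, -5.22, -3.78 and -3.49, with 1 of 5 arrays well above background, against -3.70 to -0.41 with a median of -2.17 in KI virgins. In WT mice they were -5.73, -5.54, -4.54, -4.49 and -4.05, with 2 of 5 arrays well above background, against -3.16 to -2.17 with a median of -2.56 in WT virgins. The stages did not overlap in WT mice, and in KI mice virgin 196 lay within the day-18 range. Since the dim group was mostly at background, only bounds are given: Wnt10b was at least 4.43-fold lower in KI (adjusted p = 5.89e-05) and at least 3.72-fold lower in WT glands (adjusted p = 1.94e-04). Bounds set the mean of the brighter stage, here the virgins, against the dimmer one. For each array of the dimmer stage they take the higher of the gene's own signal and the lowest signal well above background. They compare observed means and carry no interval, and the adjusted p beside each is that of the plain difference (limma). Another background correction (normexp) kept the fall but ended the WT call, at -0.46. The other Wnt10b probe that passed the filter was well above background on 1 of 5 KI and 0 of 5 WT arrays at day 18. It was called lower in WT (adjusted p = 0.0316) but not in KI glands (adjusted p = 0.0517; limma).

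Of the remaining ligands, Wnt6 was called in both genotypes, and Wnt7b and Wnt10a had calls that ended when single mice were left out. Wnt6 averaged -0.69 ± 0.39 at day 18 against -1.70 ± 0.74 in virgins in KI glands (SD, n = 5 and n = 7), a rise of 1.00 (adjusted p = 0.0135), and -0.35 ± 0.47 against -1.43 ± 0.48 in WT glands, a rise of 1.08 (adjusted p = 0.0084); with spike-in scaling these became 0.10 and 0.11 and were not called. Wnt7b, a ligand of ductal epithelium, fell by 1.18 in WT glands (adjusted p = 0.0249), a call that ended without WT virgin 188 (-1.06), WT virgin 369 (-1.04) or WT day-18 mouse 233 (-1.01). In KI glands it differed by -0.37 (adjusted p = 0.5116), and the difference between the genotypes was 0.82 with an interval of -0.39 to 2.02. The other Wnt7b probe that passed the filter read -1.54 in WT (adjusted p = 0.0434) and an uncalled -1.10 in KI glands (adjusted p = 0.1504; limma). For that probe the genotypes differed by 0.43. Wnt10a had -2.13 to -1.63 in KI mice at day 18, against -5.89 to -2.15 in KI virgins, where mouse 198 is the lowest. Its rise of 1.33 (adjusted p = 0.0375) became 0.89 without mouse 198 (adjusted p = 0.0729) and 1.32 without mice 376 and 184 (adjusted p = 0.0609). The call also ended without KI virgin 384 (adjusted p = 0.0556) or any 1 of the 5 KI day-18 mice (adjusted p = 0.0553 to 0.0774). In WT glands it differed by 0.28 (adjusted p = 0.6964).

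Wnt4, the ligand that carries progesterone's signal, was not called in either genotype. It had 0.82, 0.87, 0.96, 1.51 and 1.76 in KI mice at day 18, against -0.11 to 2.08 with a median of 1.31 in KI virgins. In WT mice it had 0.35, 1.03, 1.13, 1.44 and 1.44, against -0.42 to 2.62 with a median of 1.83 in WT virgins. The virgins spread more widely than the pregnant mice and enclosed them in both genotypes. The difference was -0.02 with an interval of -0.91 to 0.87 in KI and -0.51 with an interval of -1.40 to 0.38 in WT glands. Wnt1 differed by 0.05 in KI and 0.40 in WT glands, and Wnt9a by -0.48 and -0.51 in the same order, none of them called. Without the arrays of mice 376 and 184, Wnt9a was called lower in KI glands (-0.80, adjusted p = 0.0115) and Wnt1 higher in WT glands (0.40, adjusted p = 0.0409).

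**Figure D2:**
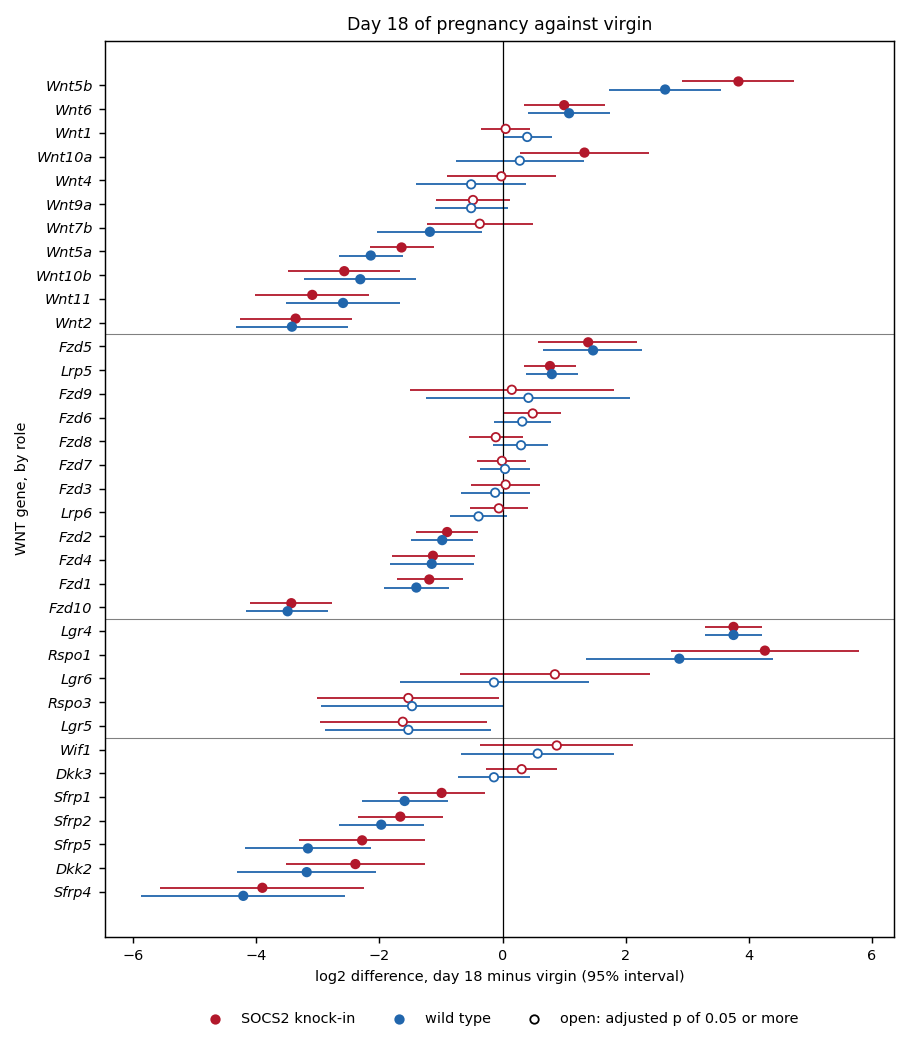
Points give the log2 difference of day 18 minus virgin for each tested WNT gene with its 95% interval, for KI (red, upper of each pair) and WT glands (blue), with filled points for an adjusted p under 0.05. The genotypes lie close together in nearly every row, with Wnt5b and Rspo1 farther right in KI glands without a tested difference, and the small rise of Lrp5 turns to -0.14 in KI and -0.18 in WT glands with spike-in scaling.

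Of the 12 receptors, 2 rose and 4 fell in each genotype, or 50%, near the 42.2% of all genes called in KI and 40.8% in WT glands. Fzd10 had the largest difference of them. Fzd10 had -3.88, -3.60, -3.36, -3.23 and -2.50 in KI mice at day 18, against -1.31 to 1.06 with a median of 0.08 in KI virgins. WT mice had -3.76, -3.43, -3.10, -2.64 and -2.52 at day 18, against -0.14 to 0.90 with a median of 0.40 in virgins. Every pregnant mouse was below every virgin of its genotype, and KI virgin 376 was the lowest virgin. Fzd10 fell by 3.43 ± 0.32 in KI (10.8-fold, adjusted p = 1.76e-08) and by 3.49 ± 0.32 in WT glands (11.3-fold, adjusted p = 1.30e-08). Within slides 1, 2 and 3 it was -2.43, -4.05 and -4.24 in KI and -3.77, -3.81 and -3.04 in WT glands, and with normexp the difference was -1.99 in KI and -2.21 in WT glands, still called.

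Fzd1, Fzd2 and Fzd4 fell by smaller amounts. Fzd1 averaged 0.56 ± 0.20 at day 18 against 1.75 ± 0.74 in virgins in KI glands, a fall of 1.19 (adjusted p = 6.98e-04), and 1.04 ± 0.19 against 2.44 ± 0.17 in WT glands, a fall of 1.40 (adjusted p = 1.38e-04). Fzd4, which also binds norrin, fell by 1.13 in KI (adjusted p = 0.0076) and by 1.15 in WT glands (adjusted p = 0.0068), and its second probe was called lower in both genotypes. Fzd2 fell by 0.90 in KI (adjusted p = 0.0043) and by 0.98 in WT glands (adjusted p = 0.0023). For Fzd1, Fzd2 and Fzd4 the WT stages did not overlap and the KI stages did, with virgin 376 the lowest KI virgin for each of them. With median scaling of the arrays these 3 kept their sign and lost their call in both genotypes, and Fzd2 in KI glands lost it with quantile normalization too (-0.75).

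Fzd5, a receptor for Wnt5a among others, had -2.60, -2.37, -2.30, -2.21 and -2.09 in KI mice at day 18, against -4.39 to -1.24 with a median of -4.01 in KI virgins. The WT levels were -3.31, -2.86, -2.48, -2.42 and -1.86, against -4.60 to -3.36 with a median of -3.99 in WT virgins. Virgin 376, at -1.24, was the KI virgin that reached the day-18 range. Fzd5 rose by 1.39 in KI (adjusted p = 0.0060) and by 1.47 in WT glands (adjusted p = 0.0041), and with spike-in scaling by an uncalled 0.48 and 0.49. The other Fzd5 probe that passed the filter was not called and read 0.84 in KI and 0.26 in WT glands. With the mean of the probes Fzd5 differed by an uncalled 1.11 in KI and 0.86 in WT glands. Lrp5, a co-receptor, rose by 0.77 in KI (adjusted p = 0.0037) and by 0.80 in WT glands (adjusted p = 0.0028; limma). It turned to -0.14 in KI and -0.18 in WT glands with spike-in scaling. Its other probe read -0.09 in KI and -0.60 in WT glands, neither called. The direction of Lrp5 thus depended on the scaling and the probe. The co-receptor Lrp6 and Fzd3, Fzd6, Fzd7, Fzd8 and Fzd9 were not called, with differences of -0.11 to 0.49 in KI and -0.39 to 0.42 in WT glands. Without mice 376 and 184, Fzd6 was called higher in KI glands (0.60, adjusted p = 0.0325), a call that ended when mouse 198 was left out too, and Lrp6 lower in WT glands (-0.39, adjusted p = 0.0314).

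Lgr4 and its ligand Rspo1 rose strongly, while Lgr5, Lgr6 and Rspo3 were not called. Lgr4, an R-spondin receptor, had 1.99, 2.34, 2.43, 2.53 and 2.98 in KI mice at day 18, against -2.29 to -0.80 with a median of -1.20 in KI virgins. WT mice had 2.22, 2.47, 2.57, 2.65 and 2.99 at day 18, against -1.54 to -0.80 with a median of -1.13 in virgins. All 10 pregnant mice lay far above all 14 virgins. The rise was 3.75 ± 0.22 in KI (13.4-fold, adjusted p = 1.11e-11) and 3.75 ± 0.22 in WT glands (13.5-fold, adjusted p = 1.14e-11), the smallest adjusted p among the members in each genotype. Within slides 1, 2 and 3 it was 4.00, 3.45 and 3.65 in KI and 3.84, 3.73 and 3.77 in WT glands, and over all 37 other settings it lay between 2.84 and 4.30 in KI and between 2.78 and 3.89 in WT glands. All 3 Lgr4 probes were called higher in both genotypes. The dimmest of them was well above background on 1 of 7 KI and 0 of 7 WT virgins. It gives a bound only, 2.09-fold higher in KI and 2.2-fold higher in WT glands at day 18. The probe that stands for Lgr4 lies at chr2:109854007-109854066 (mm9), and a second one, printed because it reads spliced Lgr4 RNA, covers 1387 bases of genome with 60 bases of probe at chr2:109829910-109831296 on the plus strand.
Lgr4 splice-spanning probe: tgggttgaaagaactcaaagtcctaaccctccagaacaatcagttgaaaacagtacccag
It read 2.77 in KI (adjusted p = 1.20e-04) and 2.59 in WT glands (adjusted p = 2.54e-04).

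Rspo1, a secreted amplifier made by luminal cells of the gland, had 0.64, 3.27, 3.55, 4.80 and 5.33 in KI mice at day 18, against -1.20 to 0.42 with a median of -0.93 in KI virgins. In WT mice it had 1.34, 1.52, 4.03, 4.19 and 4.71 at day 18, against -0.77 to 2.55 with a median of -0.33 in WT virgins. The day-18 levels spread over more than 3 log2 units in each genotype. KI stages did not overlap, although mouse 184 at 0.64 lay close to the highest KI virgin, and in WT mice virgins 188 and 369 lay within the day-18 range. The rise was 4.26 ± 0.73 in KI (19.1-fold, adjusted p = 6.42e-05) and 2.87 ± 0.73 in WT glands (7.33-fold, adjusted p = 0.0030). Within slides 1, 2 and 3 it was 5.01, 3.79 and 3.93 in KI and 0.23, 3.08 and 4.32 in WT glands, slide 1 holding 1 WT day-18 mouse. The difference between the genotypes was 1.38 with an interval of -0.76 to 3.53 and was not called (adjusted p = 0.9999).

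Lgr5, which marks a subset of basal cells, differed by -1.62 in KI (interval -2.97 to -0.26, adjusted p = 0.0508) and -1.53 in WT glands (interval -2.89 to -0.18, adjusted p = 0.0654). Without mouse 198 Lgr5 was called lower, at -2.01 in KI (adjusted p = 0.0111) and -1.53 in WT glands (adjusted p = 0.0413), and likewise without mice 376, 184 and 198. Lgr6 differed by 0.85 in KI and -0.14 in WT glands, with virgin 198 at -7.16 in KI. Rspo3 was well above background on 1 of 5 KI and 0 of 5 WT arrays at day 18, against 5 of 7 KI and 6 of 7 WT virgins. The bound on its means was 1.22-fold lower in KI (adjusted p = 0.0883) and 1.06-fold lower in WT glands (adjusted p = 0.1052; limma). Since neither difference was called, no fall of Rspo3 is shown by all mice. Without mice 376 and 184, where 0 of the remaining KI arrays at day 18 were well above background, it was called lower in KI (adjusted p = 0.0029) and in WT glands (adjusted p = 0.0042), against a group at background.

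**Figure D3:**
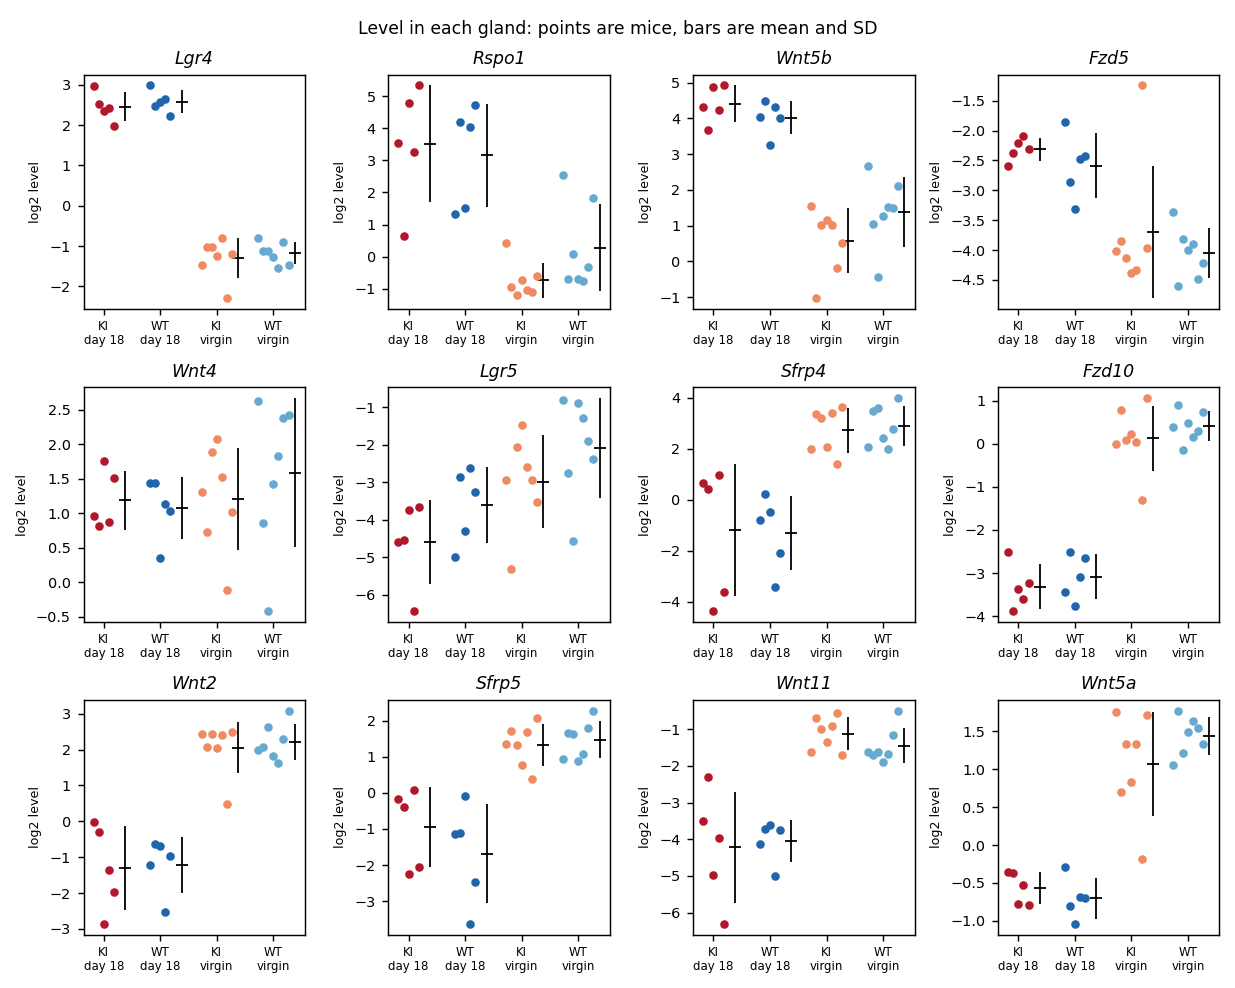
Each point is the log2 level of 1 mouse for 12 WNT genes, with the mean and SD beside each group, in the order KI day 18, WT day 18, KI virgin, WT virgin. Lgr4 and Wnt5b separate the stages without overlap in each genotype, Rspo1, Sfrp4 and Sfrp5 spread widely at day 18, and Wnt4 overlaps throughout; the rise of Fzd5 was not called with spike-in scaling.

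The inhibitors fell or were not called. In each genotype 5 of 7 fell and 0 rose, where 18.5% of all genes fell in KI and 19.3% in WT glands, and the median difference of the 7 was -1.66 in KI and -1.97 in WT glands. Sfrp4, a WNT-binding protein of stroma, had -4.36, -3.61, 0.43, 0.67 and 0.98 in KI mice at day 18, against 1.41 to 3.63 with a median of 3.21 in KI virgins. In WT mice it had -3.41, -2.09, -0.78, -0.47 and 0.21, against 1.99 to 3.99 with a median of 2.78 in WT virgins. Every pregnant mouse was below every virgin, but KI mice 210 and 239 were some 4 log2 units below the other 3 of their group. Sfrp4 fell by 3.90 ± 0.80 in KI (15-fold, adjusted p = 4.15e-04) and by 4.21 ± 0.80 in WT glands (18.6-fold, adjusted p = 1.97e-04).

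Sfrp5, another WNT-binding protein and one that fat cells secrete, had -2.26, -2.05, -0.40, -0.16 and 0.09 in KI mice at day 18, against 0.38 to 2.06 with a median of 1.34 in KI virgins. In WT mice it had -3.63, -2.47, -1.15, -1.11 and -0.09, against 0.89 to 2.27 with a median of 1.62 in WT virgins. KI mice 210 and 239 and WT mice 234 and 235 were the lowest, as for Sfrp4. Sfrp5 fell by 2.28 in KI (4.87-fold, adjusted p = 6.92e-04) and by 3.16 in WT glands (8.91-fold, adjusted p = 2.25e-05). Sfrp2 averaged 0.68 ± 0.26 at day 18 against 2.34 ± 0.85 in virgins in KI glands, a fall of 1.66 (adjusted p = 3.55e-04), and 1.12 ± 0.46 against 3.09 ± 0.49 in WT glands, a fall of 1.97 (adjusted p = 5.74e-05). Sfrp1 fell by 0.99 in KI (adjusted p = 0.0220) and by 1.59 in WT glands (adjusted p = 6.24e-04); the KI call ended without mouse 210 (-0.92), 211 (-0.90) or 239 (-0.80) and with normexp (-0.42).

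Dkk2, which binds Lrp5 and Lrp6, was well above background in all virgins but on 2 of 5 KI and 1 of 5 WT arrays at day 18. Its levels were -6.22, -5.20, -4.09, -3.27 and -2.88 in KI mice at day 18, against -2.78 to -0.31 with a median of -2.10 in KI virgins. In WT mice they were -6.60, -6.43, -6.06, -5.50 and -4.33, against -3.83 to -1.46 with a median of -2.67. The stages did not overlap in either genotype. Dkk2 was at least 3.66-fold lower in KI (adjusted p = 0.0011) and at least 4.16-fold lower in WT glands (adjusted p = 6.25e-05), and with normexp the falls of 0.62 and 0.57 were not called. Dkk3, a divergent member whose action on Lrp6 is disputed, differed by 0.31 in KI (interval -0.27 to 0.89) and -0.14 in WT glands (interval -0.72 to 0.45). Wif1 differed by 0.88 in KI (interval -0.36 to 2.12) and 0.57 in WT glands (interval -0.67 to 1.81). These intervals do not reach the size of the falls of Sfrp2, Sfrp4 or Sfrp5.

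Non-overlap between stages gave 11 members in KI (31.4%, against 19.1% of all genes) and 17 in WT glands (48.6%, against 39% of all genes). All 20 calls in each genotype had the same sign within each of the 3 slides. The calls were made on these same arrays, so that count is a description and not a replication. Slide 1 held 1 WT and slide 3 held 1 KI day-18 mouse. With slide as a block the largest shift was 0.09 in KI and 0.10 in WT glands. Without mice 376 and 184, 22 of 35 members were called in KI glands, beside 55.7% of all genes. In WT glands 23 of 35 were called, beside 59.5% of all genes. Without mouse 198 as well, the counts were 22 of 35 in KI, beside 54.2% of all genes, and 24 of 35 in WT glands, beside 60.2%. With all mice the shares of all genes were 42.2% and 40.8%, so without these arrays the members stood closer to all genes.

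Marker genes of several cell types also differed between the stages, and in bulk tissue fewer cells of a type and less RNA per cell cannot be told apart. Fibroblast markers fell in 7 of 8 genes in KI and 8 of 8 in WT glands, with mean log2 levels of the list of 3.54 to 5.01 in KI mice at day 18 against 4.06 to 6.61 in KI virgins, and 3.85 to 4.73 in WT mice at day 18 against 5.95 to 6.57 in WT virgins. White adipocyte markers fell in 6 of 8 in each genotype, and the list ranged over 2.64 to 4.40 against 3.57 to 5.97 in KI and over 4.01 to 4.48 against 5.54 to 5.84 in WT glands. Mouse 376 was the lowest KI virgin in both lists, and the next lowest had 6.00 for fibroblast and 5.57 for adipocyte markers. These lists moved in the direction of Wnt2, Sfrp4, Sfrp5 and Wnt5a, as did the hormone-sensing luminal, endothelial, macrophage and nerve lists given below. In the other direction, secretory alveolar markers rose in 7 of 7 in KI and 6 of 7 in WT glands, at 7.80 to 8.22 against -2.88 to 0.64 in KI and 7.63 to 8.44 against -1.49 to 3.35 in WT glands. Luminal markers rose in 6 of 10 in KI and 5 of 10 in WT glands, with 1 lower in each. Basal and myoepithelial markers rose in 8 of 8 in KI and 5 of 8 in WT glands. Hormone-sensing luminal markers fell in 5 of 6 in each genotype. Endothelial markers fell in 4 of 6 in KI and 3 of 6 in WT glands, and macrophage markers in 4 of 6 in each. Nerve markers fell in 4 of 6 in each, with 1 higher in KI glands. B cell markers fell in 1 of 3 in KI and 0 of 3 in WT glands. Of 4 skin and hair follicle markers, 1 rose and 1 fell in each. T cell markers rose in 2 of 5 in KI and 4 of 5 in WT glands, and 0 of 8 skeletal muscle markers were called in either. Over all genes, 23.7% rose and 18.5% fell in KI glands, and 21.5% rose and 19.3% fell in WT glands. The skin and hair follicle counts lay near these shares, and the B cell list of 3 genes is too short to compare with them. The part of the marker shifts in the WNT results was not tested.

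The pregnant mice with the lowest Sfrp4 and Sfrp5 are set beside their fibroblast and white adipocyte markers here. KI mice 239 and 210 had fibroblast scores of 3.54 and 3.65 against 4.58 to 5.01 in the other 3 KI mice. WT mouse 234 had 3.85, but WT mouse 235 had 4.70, beside 4.61 to 4.73 in the rest. Adipocyte scores were 2.64 and 3.86 in KI mice 239 and 210, against 4.00 to 4.40 in the other 3. WT mice 234 and 235 had 4.04 and 4.48, beside 4.01 to 4.46 in the rest. The mice were picked by their Sfrp4 and Sfrp5 levels, and a link to either list was not tested.

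**Figure D4:**
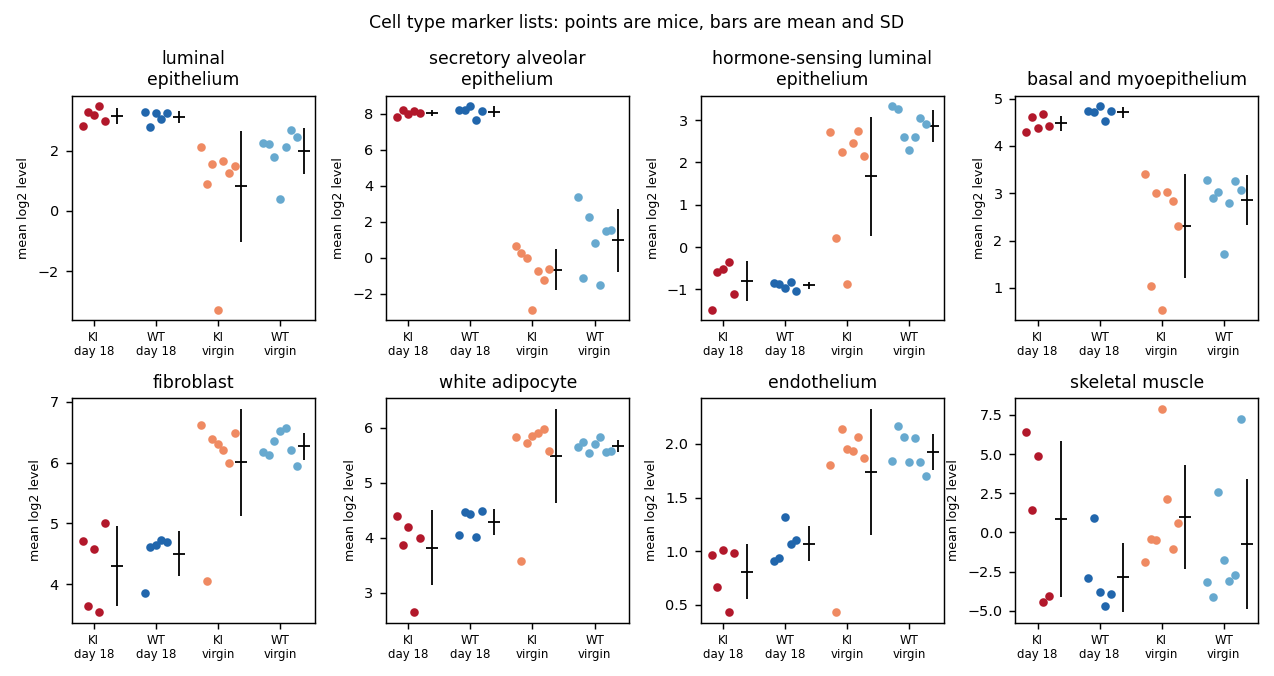
Each point is the mean log2 level of a cell type marker list in 1 mouse, with the group mean and SD beside it, in the order KI day 18, WT day 18, KI virgin, WT virgin. Fibroblast, white adipocyte and endothelial lists are lower and the secretory alveolar and basal lists higher at day 18, with KI virgin 198 low in the epithelial lists and KI virgin 376 low in the fibroblast, adipocyte and endothelial lists.

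The knock-in gave no called difference in the family. Of the 35 members 0 were called in virgins, at day 18, averaged over the stages or in the difference between stages, and so were 0 of all 22389 genes (0% called in each). With limma array weights 26 genes, of which 0 were members, were called in virgins. At an unadjusted p under 0.05 there were 5, 1, 5 and 0 members in these 4 comparisons, of 799, 441, 1131 and 217 genes (limma). The smallest adjusted p among the members was 0.6955 in virgins, 0.9999 at day 18, 0.6451 averaged over stages and 0.9999 for the difference. The member median was -0.18 in virgins and -0.07 at day 18, where that of all genes was -0.10 and -0.03.

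The widest gaps had wide intervals. In virgins Wnt10a differed by -1.17 (interval -2.12 to -0.22), with -5.89 to -2.15 in KI against -3.71 to -0.79 in WT mice. Lgr6 differed by -1.17 (interval -2.58 to 0.23), with the lowest KI value, -7.16, in mouse 198. Without mouse 198 these differences became -0.73 for Wnt10a and -0.38 for Lgr6. Fzd1 differed by -0.69 (interval -1.18 to -0.21), with 0.17 to 2.33 in KI against 2.22 to 2.75 in WT virgins, and by -0.43 without mice 376 and 184. At day 18 Fzd1 was the single member whose genotypes did not overlap, with 0.26, 0.47, 0.61, 0.71 and 0.73 in KI against 0.89, 0.91, 0.92, 1.21 and 1.29 in WT mice. That is 2.86% of the members, against 1.26% of all genes at day 18, and its difference of -0.48 had an interval of -1.06 to 0.09. In virgins 0 members and 0.0179% of all genes did not overlap.

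Sfrp2 differed by -0.75 in virgins (interval -1.38 to -0.12) and -0.44 at day 18, Dkk3 by -0.71 (interval -1.24 to -0.17) and -0.26, and Wnt1 by 0.40 (interval 0.03 to 0.76) and 0.05. Dkk2 was the member with the largest day-18 gap, 1.45 (interval 0.23 to 2.67), in a group where most arrays were at background. Of the genes with strong stage changes, Lgr4, Fzd10 and Wnt5b had genotype intervals that included 0. Lgr4 differed by -0.12 in virgins (interval -0.54 to 0.30) and -0.13 at day 18 (interval -0.63 to 0.37). Fzd10 differed by -0.28 (interval -0.89 to 0.32) and -0.22 (interval -0.94 to 0.50). Wnt5b differed by -0.81 (interval -1.63 to 0.02) and 0.38 (interval -0.60 to 1.36). Misses of this kind bound the effect and do not show that the genotypes are equal. Beside them, the luminal list ranged from -3.28 to 2.13 in KI and from 0.39 to 2.69 in WT virgins, and the part of that gap in the virgin values was not tested.

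**Figure D5:**
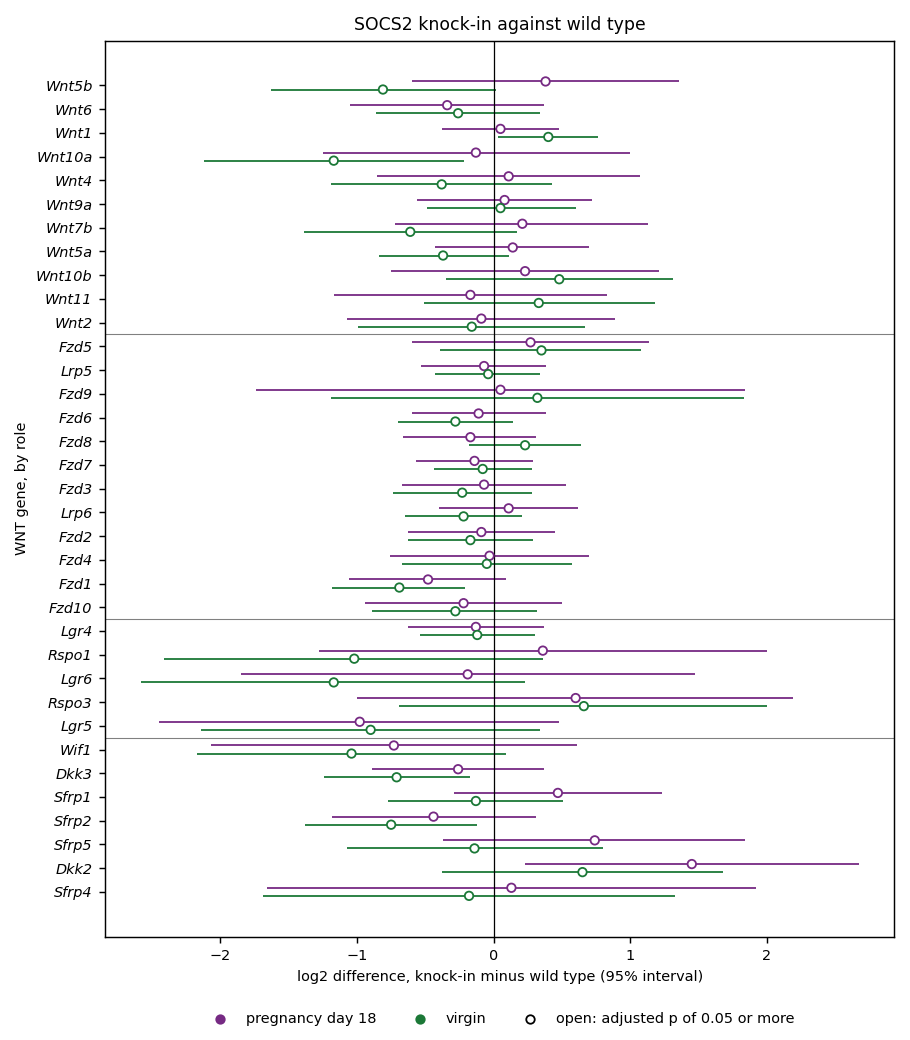
Points give the log2 difference of KI minus WT for each tested WNT gene with its 95% interval, at day 18 (purple, upper of each pair) and in virgins (green); open points have an adjusted p of 0.05 or more, as all 35 do at each stage. Wnt10a, Lgr6 and Wif1 lie farthest left in virgins and Dkk2 farthest right at day 18.

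Beyond the members, a list of 52 genes that make, carry or answer the WNT signal was examined, of which 49 were tested and Sost, Draxin and Sp5 were too dim. In KI glands 12 rose and 8 fell between virgin and day 18 (40.8%), and in WT glands 7 rose and 11 fell (36.7%), near the share of all genes; with spike-in scaling 5 rose and 25 fell in KI and 3 rose and 36 fell in WT glands. Rnf43, which removes Frizzled from the cell surface, rose by 3.67 in KI (12.7-fold, adjusted p = 1.68e-06) and by 3.13 in WT glands (8.73-fold, adjusted p = 1.44e-05). It averaged 2.58 ± 0.51 at day 18 against -1.08 ± 1.38 in virgins in KI glands, and 2.72 ± 0.11 against -0.41 ± 0.58 in WT glands. Its partner Znrf3 was not called, at 0.51 in KI and 0.40 in WT glands. Notum, which strips the lipid from WNTs, rose by 1.53 in each genotype (adjusted p = 4.69e-07 in KI and 4.74e-07 in WT glands). Myc rose by 1.76 in KI and 1.56 in WT glands, and Tcf7l2, a beta-catenin partner, by 1.97 and 1.53.

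Axin2, Apcdd1 and Ror2 fell in each genotype, and Frzb and Pygo1 were called lower against day-18 groups at background. Axin2, a feedback target of beta-catenin, averaged -3.75 ± 1.03 at day 18 against -1.95 ± 0.75 in virgins in KI glands (adjusted p = 6.62e-04), and -3.81 ± 0.56 against -1.88 ± 0.34 in WT glands (adjusted p = 3.39e-04). With normexp its falls of 0.42 in KI and 0.63 in WT glands were not called. Apcdd1, a membrane inhibitor of WNT, fell by 2.13 in KI and 2.15 in WT glands, and Ror2, the Wnt5a receptor, by 1.92 and 2.03. Frzb, an Sfrp relative, was well above background on 0 of 5 arrays at day 18 in each genotype, against 6 of 7 virgins. It was at least 1.43-fold lower in KI (adjusted p = 0.0046) and at least 1.18-fold lower in WT glands (adjusted p = 0.0070), but with normexp read an uncalled -0.28 in KI and 0.07 in WT glands. Pygo1, a beta-catenin cofactor, was likewise not well above background on any day-18 array, against 5 of 7 KI and 7 of 7 WT virgins. It was called lower in both genotypes, at least 1.28-fold in WT glands (adjusted p = 1.68e-05) and with no fold given in KI glands (adjusted p = 1.79e-04), and turned to 0.24 in KI and 0.07 in WT glands with normexp. Of the other target and cofactor genes, Lef1 was not called (-0.54 in KI and 0.01 in WT glands), Tcf7 fell by 0.98 in WT glands (adjusted p = 0.0205) and differed by -0.57 in KI glands (adjusted p = 0.1720). Porcn and Wls, which lipidate and export all WNTs, were not called, at -0.27 and 0.17 in KI and -0.56 and 0.11 in WT glands.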

How the data were processed

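The members and gene lists were chosen with earlier results of these data known. Agilent 60K 1-colour arrays of 24 mice were used. Per the file headers and the submitters' processing notes, the authors extracted spots with Agilent Feature Extraction 12.0.3.2, and the deposited text files hold processed intensity, which is background-subtracted and not scaled between arrays. Per its values, the deposited series table holds log10 of that intensity (largest difference 0.0050) and served as an alternative. From these, log2 intensity was computed, outlier spots were left out, replicate spots averaged and each array's 75th percentile subtracted. Depth does not apply to arrays, and what limits precision was not tested. Genes carry the files' names, and the probe of highest mean stood for its gene. Group means were fitted to all arrays with limma 3.58.1 in R 4.3.3 (package data.table, version 1.17.8), with Benjamini-Hochberg adjustment over 22389 genes in each of 6 comparisons. Tests were first run on simulated data. Mouse numbers are all different, so groups are unpaired, and the labels do not say whether litters were shared. Coordinates of probes are mm9, as in the files. Called members are named with values; of the pathway list, 9 fixed genes and the 4 largest rises and falls.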

Additional observations from a re-analysis of the deposited data

Results flagged for a closer look

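Within a group, 24 of 140 sets of values held a mouse that stood apart from the others by a gap test, where chance alone marks about 1 in 20 sets. The array of KI virgin 376, the one with the high negative-control signal, was the lowest of its group for 7 genes. These were Fzd1 at 0.17 (next 1.64), Fzd2 at -0.35, Fzd4 at 1.51 (next 3.71), Lrp6 at 1.51, Sfrp2 at 0.59, Wnt2 at 0.48 and Wnt9a at -2.03. It was the highest for Fzd5 at -1.24 and Fzd8 at -1.23. KI virgin 198, whose luminal score was lowest and muscle score highest, was the lowest for Lgr6 at -7.16 (next -2.51), Wnt10a at -5.89 and Wnt7b at -3.89, and the highest for Dkk2 at -0.31 and Fzd9 at 1.03 (next -2.92).

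WT day-18 mouse 233 was the lowest for Fzd6 at -1.19, Wif1 at -2.22 and Wnt7b at -3.08. KI virgin 196 was the highest for Rspo1 at 0.42. Among day-18 mice, KI 184 was the lowest for Lgr6 at -3.09, KI 183 the highest for Sfrp2 at 1.14, KI 211 the highest for Fzd9 at -2.47 and WT 206 the highest for Dkk3 at 1.38. Among WT virgins, mouse 320 was the highest for Fzd9 at -0.89 and mouse 369 for Fzd8 at -1.64. Mouse 320 also had the highest skeletal muscle score of WT virgins, 7.22, as mouse 198 did of KI virgins and mouse 211 of KI day-18 mice (6.40).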

How the results depend on the processing

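Over 37 other settings, the count of called members stayed within 1.5 times the reported 20 in each genotype, from 14 to 26 in KI and from 15 to 26 in WT glands, and it stayed at 0 in the 4 genotype comparisons. Leaving out 1 mouse at a time gave 18 to 22 members in KI and 19 to 23 in WT glands. Calls over all genes then ran from 8022 to 12293 in KI and from 7945 to 12879 in WT glands. The share of all genes called was 20.6% in KI and 21.9% in WT glands with median scaling. With spike-in scaling it was 58.2% and 66.1%. Lrp5 reversed with spike-in scaling, at -0.14 in KI and -0.18 in WT glands, where the median of all genes shifted to -0.78 and -0.90. Of the 20 calls, 10 in KI and 11 in WT glands held in every setting that measured the gene; those lost in at least 1 setting were Dkk2, Fzd1, Fzd2, Fzd4, Fzd5, Lrp5 and Wnt6 in each genotype, with Sfrp1, Sfrp2 and Wnt10a in KI and Wnt10b and Wnt7b in WT glands. Across all genes, calls were 9444 in KI and 9134 in WT glands, against 4617 and 4894 with median scaling. In WT glands they were 14805 with spike-in scaling and 14147 with array weights. Of the calls, 5307 in KI and 4824 in WT glands were higher, against 1372 of 13034 and 1144 of 14805 with spike-in scaling and 5366 of 8233 and 5373 of 8480 with normexp. The cause was not tested. Leaving out the dimmest probes removed 7 members from testing. No paired analysis was possible because every mouse number occurs once.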
